A study of Mus musculus castaneus and Mus musculus domesticus and Mus musculus with 11 samples.

Results

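The 39 genes described here are the Hox genes of the mouse Hoxa, Hoxb, Hoxc and Hoxd clusters, among 27071 genes in a table of read counts. They were chosen by name alone, as the genes whose symbol is Hox, a cluster letter and a paralogue number, which leaves out the antisense and other non-coding genes of the clusters. The RNA came from motor neuron cultures made from embryonic stem cells of 3 mouse lines, and the series set out to compare their identity. The lines were a CASTx129 hybrid (called hybrid), CAST/EiJ, a wild-derived inbred strain (called CAST), and 129S6/SvEv, a laboratory inbred strain (called 129). No line carries a stated transgene or mutation, no treatment or age is given, and the labels give only strain and cell type. Each line had 3 libraries in the table, 9 in all. The labels also list CAST libraries 7 and 8, which were not analysed here. Whether the 3 libraries per line stand for separate differentiations is not stated, so every p-value below measures only the spread between these libraries.

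Hox genes encode homeodomain transcription factors that give cells along the body axis their position. Within each cluster the genes lie in the order in which they act from head to tail, and genes with the same number in different clusters are paralogues, copies of one ancestral gene. In the motor system, paralogues 1 to 3 act mainly in the hindbrain, 4 and 5 in the caudal hindbrain and cervical cord, 6 to 8 in the brachial cord that serves the forelimb, 9 in the thoracic cord, and 10 to 13 in the lumbar cord and more caudal parts. Retinoic acid favours the low-numbered genes, and FGF, Wnt and Gdf11 signals and the Cdx factors favour the high-numbered ones. In this tissue Hox proteins, with Pbx and Meis cofactors, set which muscle group a motor neuron will serve.

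In the GRCm38 assembly and the GENCODE vM21 annotation, the Hoxa genes lie on chromosome 6, the Hoxb genes on chromosome 11, the Hoxc genes on chromosome 15 and the Hoxd genes on chromosome 2. The part of the coding sequence that Hox genes share is the homeobox, which encodes the DNA-binding homeodomain and was found in 39 of 39 members. It is shown because reads from near-identical stretches of paralogues can be split or lost in counting. Whether reads of these members were so affected was not tested. The homeobox of Hoxc8, a member that passed the joint test among the 3 lines, is shown with that of the same-numbered paralogue that shares the longest run of bases with it (Hoxc8 at chr15:102992571-102992750 and Hoxb8 at chr11:96284174-96284353). Both genes are on the plus strand, and the sequences are those of the GENCODE transcripts, from the C57BL/6J reference and not from either line. Capitals mark the bases that differ within the pair.
Hoxc8: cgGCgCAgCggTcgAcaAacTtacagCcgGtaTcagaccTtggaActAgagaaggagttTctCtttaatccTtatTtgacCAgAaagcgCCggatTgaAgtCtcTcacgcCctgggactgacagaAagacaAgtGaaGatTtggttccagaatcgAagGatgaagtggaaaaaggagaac
Hoxb8: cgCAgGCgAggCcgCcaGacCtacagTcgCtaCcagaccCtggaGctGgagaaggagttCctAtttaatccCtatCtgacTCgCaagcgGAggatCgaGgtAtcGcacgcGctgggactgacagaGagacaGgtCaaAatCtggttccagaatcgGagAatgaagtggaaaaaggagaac

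Hoxc8 and Hoxb8 were identical at 144 of 180 homeobox bases. Over whole transcripts, the longest run of identical bases in this pair was 26. Among 739 pairs of members whose exons do not overlap, the longest run was 52 bases, and 2 pairs shared a run of 50 bases or more. Some members also overlap other genes in the annotation. Hoxd3 shares 62.3% of its exon bases with other genes on its own strand (Hoxd4 and Gm28230), and Hoxd4 shares 52.3%, so the counts of this pair are uncertain. On the opposite strand the antisense gene Hoxb3os covers 52.9% of the exon bases of Hoxb3 and 27.3% of those of Hoxb2, and Hoxa11os covers 35% of those of Hoxa11. Antisense genes also cover 25.4% of the exon bases of Hoxa3, 20.4% of Hoxa7 and 16% of Hoxa4. The strand setting of the counting is not given in the sources used here, so reads of these antisense genes cannot be told apart from reads of their Hox partners.

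Total counts ran from 7763077 in hybrid library 2 to 18167577 in 129 library 1. In hybrid libraries 2 and 3 and CAST library 1, long transcripts were read less relative to short ones. Relative log2 expression moved by −0.603, −0.246 and −0.495 per doubling of exon length in them, and by 0.066 to 0.307 in the other libraries. Motor neuron markers differed widely in level. Mnx1, which marks most spinal motor neurons, had 0.495 to 4.88 CPM (the usual per-library scaling of counts, with TMM-adjusted library sizes), Lhx3 0 to 2.13 and Chat, the acetylcholine-synthesizing enzyme, 5.52 to 28.4. Isl1, a LIM homeodomain factor of motor and other neurons, had 13.1 to 62.7 CPM, and the transporters of cholinergic neurons Slc18a3 and Slc5a7 had 23.5 to 126 and 15.9 to 258. In bulk RNA, fewer cells of a type and less RNA per cell cannot be told apart.

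Hox genes took 0.0812% ± 0.0199 of all counts in the hybrid, 0.0688% ± 0.00321 in CAST and 0.0643% ± 0.0143 in 129 (SD, n = 3 each). Between 29 and 31 members had at least 1 count in a hybrid library, 26 to 30 in a CAST library and 33 to 34 in a 129 library. The summed levels along the clusters peaked at paralogues 4 and 5 in all 3 lines. Levels are compared between genes only per kilobase (kb) of exon. On this scale Hoxa5, which acts in phrenic motor neurons and in lung development, was the highest member in each line, with 63.3 ± 18.1 CPM per kb in the hybrid, 49.8 ± 7.14 in CAST and 48.5 ± 13 in 129 (SD, n = 3 each). The next members in the hybrid and CAST were Hoxa4, with 42.7 ± 21.2 and 43.7 ± 22.4 CPM per kb, and Hoxb4, with 37.1 ± 10.9 and 38.3 ± 12.6. In 129 they were Hoxb4 with 23.6 ± 8.44 and Hoxb8 with 21.2 ± 12 CPM per kb. Within each line the next members differ by less than the SD of either gene, so their order is not resolved.

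**Figure D1:**
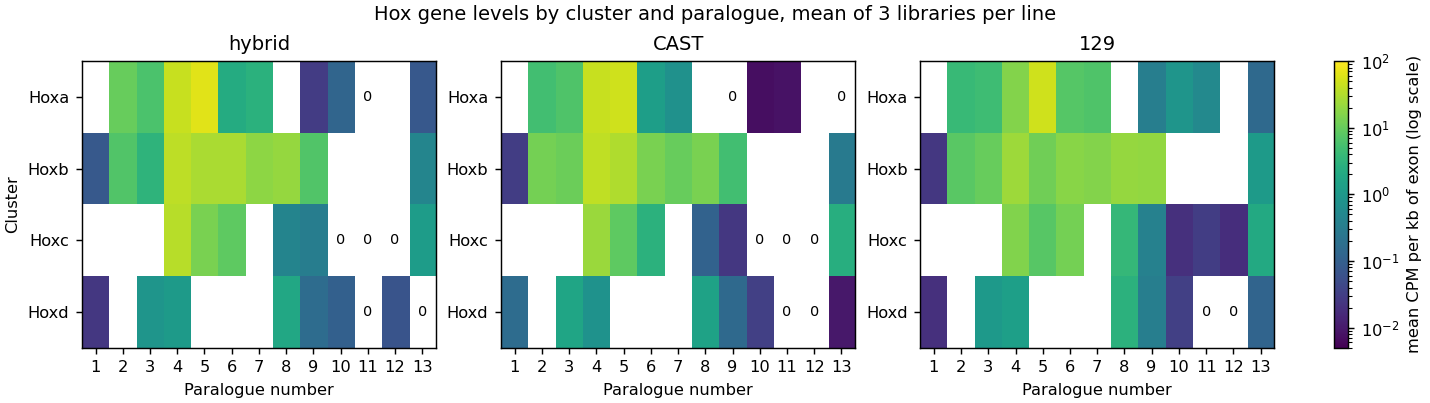
Mean Hox level in CPM per kb of exon, on a log colour scale, for each cluster (rows) and paralogue number (columns) in the hybrid, CAST and 129 (n = 3 libraries each). White squares have a listed 0 (marked), no such gene or no value reported here. The brightest square of each line is Hoxa5, at 63.3, 49.8 and 48.5 CPM per kb. In 129 Hoxb8 (21.2 CPM per kb) is brighter than Hoxa4 (16.1). The Hoxa squares past paralogue 7 are dark or at 0 in the hybrid and CAST and lighter in 129.

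Among paralogues 1 to 3, Hoxb3, which acts in the caudal hindbrain, was the one member called lower in the hybrid against both other lines (1 of 26 tested members in each comparison, beside 7.02% of all tested genes called against 129 and 6% against CAST). Hoxb3 had 20.0, 8.10 and 11.8 CPM in hybrid libraries 1 to 3, 31.7, 50.5 and 54.4 in CAST, and 46.5, 42.0 and 37.4 in 129. Every hybrid library lay below every library of CAST and 129, and CAST and 129 overlapped. The log2 fold change was −1.65 ± 0.40 (SE) in hybrid against 129 and −1.77 ± 0.40 in hybrid against CAST, with adjusted p = 0.0372 and 0.029 by edgeR's quasi-likelihood test with Benjamini-Hochberg adjustment over 14839 genes. The calls depended on the libraries kept: without hybrid libraries 2 and 3, CAST libraries 2 and 3 or 129 libraries 1, 2 and 3, each left out alone, adjusted p was 0.108, 0.131, 0.0605, 0.0505, 0.11, 0.131 and 0.0941 in hybrid against 129 and 0.0947, 0.105, 0.0952, 0.1, 0.0552, 0.0644 and 0.0551 in hybrid against CAST, with the sign kept in every case. In a fit of the hybrid and CAST alone it was 0.118. The part of Hoxb3os in these counts was not tested.

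Hoxb2, a neighbour of Hoxb3 that also acts in hindbrain motor neurons, had 13.4, 40.2 and 18.6 CPM in the hybrid, 71.3, 23.4 and 36.1 in CAST, and 31.7, 26.5 and 23.6 in 129. All 3 groups overlapped. Hoxa2, the selector gene of the second branchial arch, had 12.1, 19.7 and 22.5 CPM in the hybrid, 7.33, 10.8 and 8.82 in CAST, and 8.39, 5.79 and 7.12 in 129. Its hybrid libraries lay above all others, and the log2 fold change of 1.35 ± 0.37 (SE) in hybrid against 129 did not pass (edgeR adjusted p = 0.06). DESeq2 called it (adjusted p = 0.00435), as did edgeR without hybrid library 1 or CAST library 1 (adjusted p = 0.0466 and 0.0374). Hoxa3, needed for the thymus and parathyroid, averaged 36.3 ± 9.57 CPM in the hybrid, 39.3 ± 9.58 in CAST and 27.6 ± 3.99 in 129 (SD, n = 3 each), with CAST above 129 in every library. Hoxd3 averaged 3.73 ± 3.18, 7.19 ± 2.13 and 4.33 ± 2.02 CPM in the hybrid, CAST and 129 (SD, n = 3 each), with overlapping libraries. Hoxb1, needed for facial motor neurons, was barely read, with 4, 2 and 3 counts over the libraries of the hybrid, CAST and 129. Hoxd1 had 2, 14 and 2 counts. The CAST counts of Hoxd1 exceeded those of 129 by a ratio of 8.75 after scaling (exact 95% counting interval 2.01 to 79.3, which covers counting error only). The CAST and 129 libraries of Hoxd1 overlapped. Without 129 library 1, which held the 2 counts of 129, the ratio was 3.81 with a floor of 3 counts for 129.

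Paralogues 4 and 5 held the largest number of reads, and their summed level was 495 ± 146 CPM in the hybrid, 434 ± 111 in CAST and 277 ± 22.4 in 129 (SD, n = 3 each). No gene of these classes passed with edgeR and all libraries. Hoxa4 had 29.4, 83.8 and 91.1 CPM in the hybrid, 111, 49.6 and 48.4 in CAST, and 16.5, 26 and 34.5 in 129. All CAST libraries lay above all 129 libraries, and hybrid library 1 lay within the range of 129. Hoxb5 had 43.9, 95.6 and 97.9 CPM in the hybrid, 133, 67.8 and 56.4 in CAST, and 24.7, 29.6 and 41.6 in 129. For Hoxb5 both the hybrid and CAST lay above 129 in every library, with log2 fold changes of 1.31 ± 0.46 and 1.42 ± 0.47 (SE) against 129 (edgeR adjusted p = 0.146 and 0.21). Both genes were highest in CAST library 1, one of the libraries in which long transcripts were read less.

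Hoxc4, at the 3' end of its cluster, had 72.7, 91.7 and 101 CPM in the hybrid, 63.3, 54.6 and 55.6 in CAST, and 52.6, 35.7 and 31.7 in 129. The hybrid libraries lay above those of CAST, which lay above those of 129, with log2 fold changes of 1.15 ± 0.32 in hybrid against 129 and 0.61 ± 0.32 (SE) in hybrid against CAST that did not pass (edgeR adjusted p = 0.0689 and 0.42). In hybrid against 129 Hoxc4 was called by DESeq2 (adjusted p = 0.00513) and by edgeR without CAST library 1 (adjusted p = 0.0496), and DESeq2 also called it in the joint test of any difference among the lines (adjusted p = 0.0145). Hoxc5, which acts with Hoxa5 in phrenic motor neurons, followed with 34.3, 58.7 and 33.7 CPM in the hybrid, 27.9, 27.0 and 25.8 in CAST, and 30.4, 24.3 and 15.2 in 129. Its hybrid libraries lay above the other 6. Hoxb4 averaged 95.1 ± 27.9 CPM in the hybrid, 98.4 ± 32.5 in CAST and 60.6 ± 21.7 in 129, and Hoxa5 119 ± 34 CPM, 93.5 ± 13.4 and 91.1 ± 24.4 (SD, n = 3 each), with overlapping libraries in both. Hoxd4 was the low member of the class, with 3.27 ± 1.05, 2.33 ± 1.48 and 4.02 ± 0.858 CPM (SD, n = 3 each).

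Paralogues 6 to 8 summed to 178 ± 65.4 CPM in the hybrid, 94.1 ± 27.9 in CAST and 189 ± 102 in 129 (SD, n = 3 each), so the spread within the hybrid and 129 was wide. Hoxc8, which directs motor pool identity in the brachial cord, was the member with the smallest p in the joint test of any difference among the 3 lines (edgeR adjusted p = 0.0299). It had 2.19, 1.26 and 0.279 CPM in the hybrid, 0, 0.225 and 0.717 in CAST, and 19.0, 8.96 and 3.68 in 129. Every 129 library lay above every hybrid and CAST library. The log2 fold change was −4.97 ± 1.11 in CAST against 129 and −3.08 ± 0.99 (SE) in hybrid against 129, and neither passed on its own with edgeR (adjusted p = 0.0788 and 0.112). DESeq2 called both and limma-voom the first.

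Hoxb3 also passed the joint test (edgeR adjusted p = 0.0444). The joint call of Hoxc8 was lost without hybrid library 2, CAST library 2, 129 library 1 or 129 library 2 (edgeR adjusted p = 0.062, 0.0876, 0.123 and 0.0774), and without hybrid library 2 and CAST library 1 together (0.0667). That of Hoxb3 was lost without the same 7 libraries as its other calls (adjusted p = 0.134, 0.162, 0.0959, 0.0825, 0.0936, 0.113 and 0.089) and without the filter (0.0557). Hoxc6, which acts in the brachial lateral motor column, had 19.9, 36.7 and 5.87 CPM in the hybrid, 8.47, 6.46 and 6.45 in CAST, and 52.9, 27.4 and 10.2 in 129. CAST lay below 129 in every library, and the hybrid spanned both. Hoxa7, which patterns trunk vertebrae, had 7.15, 12.3 and 5.03 CPM in the hybrid, 0.723, 1.40 and 4.37 in CAST, and 32.3, 13.4 and 10.6 in 129. For Hoxa7 CAST was lowest in every library, with log2 fold changes of −3.10 ± 0.74 against 129 (edgeR adjusted p = 0.0982) and of 1.89 ± 0.72 (SE) in hybrid against CAST (adjusted p = 0.215). DESeq2 called Hoxa7 in CAST against 129 (adjusted p = 0.000741), and without CAST library 3 edgeR called it in the joint test (adjusted p = 0.027, against 0.0704 with all libraries).

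The Hoxb genes of this class, which act along the trunk cord, were its best read members. Hoxb8 had 52.0, 68.9 and 44.6 CPM in the hybrid, 21.9, 32.7 and 55.0 in CAST, and 91.8, 43.7 and 32.3 in 129. Hoxb6 had 44.2, 80.8 and 43.2 CPM in the hybrid, 25.3, 21.3 and 34.8 in CAST, and 48.9, 32.4 and 21.8 in 129. Hoxb8 overlapped among all lines, while the hybrid libraries of Hoxb6 lay above those of CAST. Hoxb7 averaged 29.2 ± 14.4 CPM in the hybrid, 15.6 ± 1.25 in CAST and 24.3 ± 6.56 in 129, and Hoxd8 5.24 ± 0.621, 4.08 ± 2.29 and 7.9 ± 4.54 CPM (SD, n = 3 each). Hoxa6 had 2.62, 2.10 and 1.12 CPM in the hybrid, 0, 1.63 and 1.79 in CAST, and 12.7, 4.45 and 2.30 in 129, so its CAST libraries lay below those of 129.

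**Figure D2:**
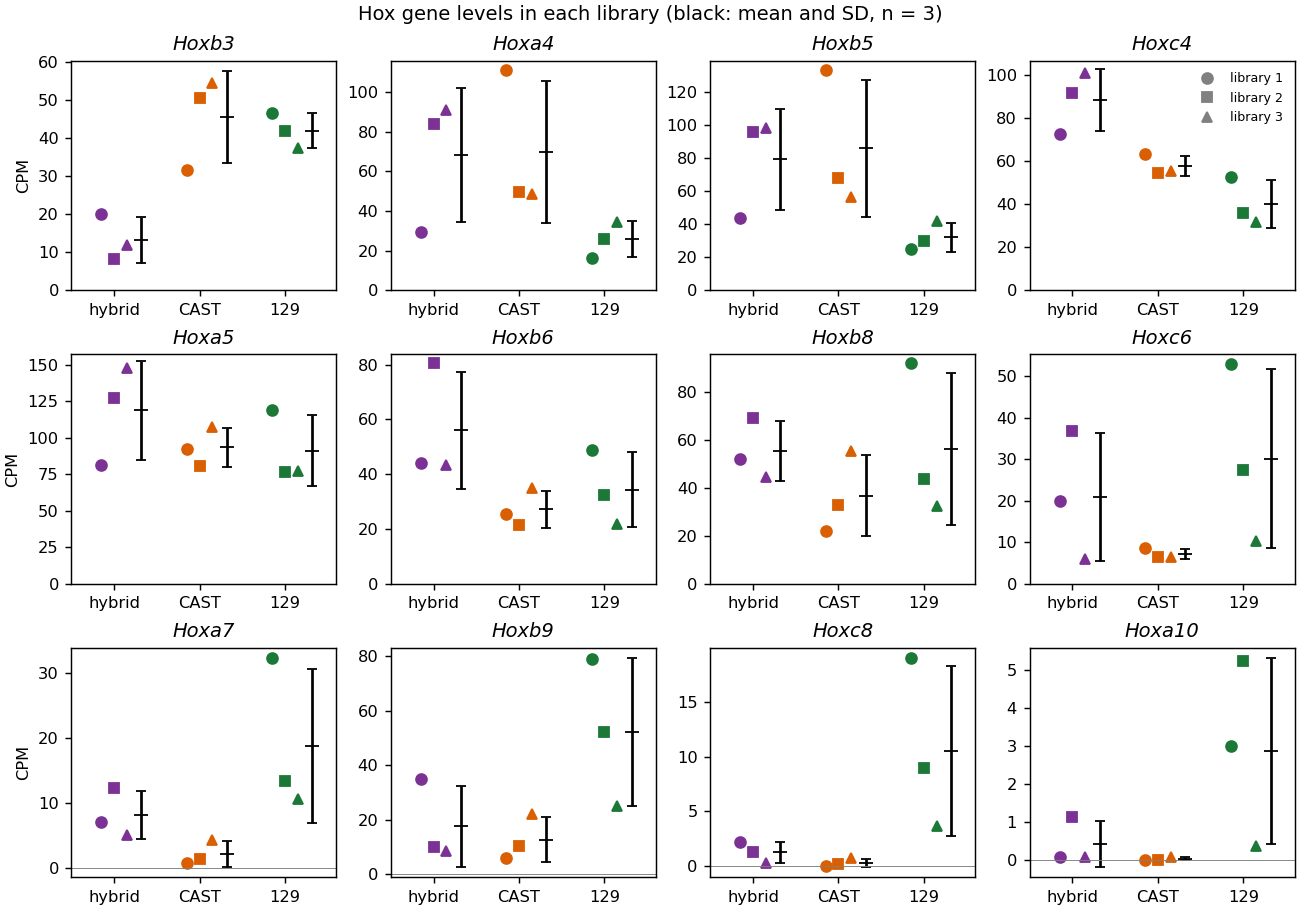
CPM of 12 Hox genes in each library (circle, square and triangle for libraries 1, 2 and 3) with the mean and SD (black, n = 3) for the hybrid, CAST and 129. In the Hoxb3 panel the hybrid libraries (8.10 to 20.0 CPM) sit below all others, and in the Hoxc8 panel the 129 libraries (3.68 to 19.0 CPM) sit above all others.

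Paralogues 9 to 13 were the least read, with 23.9 ± 15.8 CPM in the hybrid, 20.0 ± 11 in CAST and 68.0 ± 35.0 in 129 (SD, n = 3 each). Hoxb9 made up most of this. It had 34.7, 9.78 and 8.32 CPM in the hybrid, 5.88, 10.2 and 21.9 in CAST, and 79.1, 52.3 and 24.8 in 129. CAST lay below 129 in every library, and the log2 fold change of −2.04 ± 0.72 (SE) did not pass (edgeR adjusted p = 0.243).

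The Hoxa genes past paralogue 7 were read mainly in 129. Hoxa10, which specifies lumbar identity, had 0.0708, 1.12 and 0.0699 CPM in the hybrid, 0, 0 and 0.0717 in CAST, and 3.0, 5.24 and 0.345 in 129. Over the libraries it had 10 counts in the hybrid, 1 in CAST and 146 in 129. The level of Hoxa10 was lower in CAST than in 129 by a factor of 117, with an exact 95% counting interval of 20.6 to 4646. Hoxa9, next to it in the cluster, had 4 counts in the hybrid, 0 in CAST and 100 in 129. With a floor of 3 counts over the group, Hoxa9 was 26.7-fold lower in CAST than in 129. Such a floor value takes the 129 counts as read and leaves out their counting error, so it is not a strict minimum. Hoxa11, a lumbar and limb gene, had 0, 1 and 62 counts, a floor value of 14.2-fold for the hybrid below 129. Hoxa13, a gene of the digits, had 8, 0 and 19 counts, a floor value of 5.07-fold for CAST below 129. These counts were uneven within 129: Hoxa9 had 2.45, 3.29 and 0.115 CPM in its 3 libraries, so 129 library 3 was close to the other lines. With each library left out alone, the floor value of Hoxa9 ranged from 15.2 (without CAST library 2) to 39.4 (without 129 library 3). That of Hoxa11 ranged from 8.50 (without hybrid library 3) to 19.7 (without 129 library 3). That of Hoxa13 ranged from 2.89 (without CAST library 2) to 6.83 (without 129 library 3). With all libraries Hoxa11 did not pass the expression filter. Without the filter, edgeR called it lower in hybrid against 129 (adjusted p = 0.0354), and so it did without CAST library 1 or 129 library 3, where Hoxa11 passed the filter (adjusted p = 0.0404 and 0.0394).

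Hoxc9, which sets thoracic motor columns and represses brachial Hox genes, had 22 counts in the hybrid, 3 in CAST and 48 in 129. The level of Hoxc9 was lower in CAST than in 129 by a factor of 12.8 (counting interval 4.13 to 64.3), and higher in the hybrid than in CAST by a factor of 8.54 (2.57 to 44.6). Its CPM values were 0.354, 1.82 and 0.280 in the hybrid, 0, 0.112 and 0.0717 in CAST, and 1.11, 1.10 and 0.575 in 129. Hybrid library 2 held 13 of the 22 hybrid counts, and the factor of hybrid over CAST was 4.37 without it and 14.6 without CAST library 2. The log2 fold changes of Hoxa10 and Hoxc9 in CAST against 129 were −6.44 ± 1.62 and −3.58 ± 1.0 (SE), which did not pass with edgeR (adjusted p = 0.114 and 0.149), and DESeq2 called both. In the joint test edgeR called Hoxa10 without hybrid library 2 or 129 library 3 (adjusted p = 0.0248 and 0.0442, against 0.064 with all libraries) and Hoxc9 without hybrid library 2 (0.0488, against 0.124). Fitted values at such low counts depend on the prior count. Hoxc13, a hair follicle gene, went another way, with 2.98 ± 1.6 CPM in the hybrid, 6.22 ± 3.26 in CAST and 4.99 ± 2.13 in 129, and Hoxb13 had 1 ± 1.32, 0.652 ± 0.316 and 2.42 ± 1.67 CPM (SD, n = 3 each).

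The remaining members were at the limit of detection. Hoxc10, Hoxc11 and Hoxc12 had 2, 3 and 1 counts in 129 and none in the hybrid and CAST. Hoxd9 had 11, 13 and 38 counts, Hoxd10 4, 2 and 3, Hoxd12 4, 0 and 0, and Hoxd13 0, 1 and 16 in the hybrid, CAST and 129. Hoxd11 had no count in any library, which allows at most 3 counts over a line. Of Hoxc10 and Hoxd10, the genes that define lumbar limb motor columns, neither exceeded 4 counts in a line.

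Read by paralogue number across clusters, the CAST to 129 ratio of summed mean CPM was 1.53, 1.24, 1.75 and 1.41 for paralogues 2 to 5. It was 0.498, 0.413, 0.550 and 0.234 for paralogues 6 to 9. It was 0.0278 for paralogue 10, on 3 counts in CAST against 151 in 129. The hybrid to 129 ratio was 1.23, 0.722, 1.96 and 1.64 for paralogues 2 to 5, 1.11, 0.867 and 0.828 for 6 to 8, 0.340 for 9 and 0.205 for 10. Single libraries weighed on the ratios. With each left out alone, the hybrid ratio ranged from 0.823 to 1.60 at paralogue 6, 0.635 to 1.14 at 7 and 0.675 to 1.24 at 8. The CAST ratio ranged from 0.396 to 0.718, 0.355 to 0.543 and 0.414 to 0.825 at the same paralogues. Each of these highest values came without 129 library 1. The hybrid ratio was 0.191 at paralogue 9 without hybrid library 1, and at paralogue 10 it was 0.0237 without hybrid library 2, which held 12 of the 14 hybrid counts, and 0.344 without 129 library 2. The CAST ratio was 0.149 at paralogue 9 and 0.0174 at paralogue 10 without CAST library 3, and 0.0467 at paralogue 10 without 129 library 2. In CAST the ratio was above 1 for paralogues 2 to 5 and below 1 from 6 to 10. In the hybrid the ratio lay between 0.828 and 1.11 at paralogues 6 to 8 with all libraries, but single members differed. By summed counts after scaling, the hybrid to 129 ratio was 1.48, 1.07 and 0.926 for Hoxb6, Hoxb7 and Hoxb8. It was 0.289, 0.39, 0.579, 0.116 and 0.650 for Hoxa6, Hoxa7, Hoxc6, Hoxc8 and Hoxd8. Without 129 library 1 these members had ratios of 0.571, 0.613, 0.951, 0.198 and 0.981, so Hoxc6 and Hoxd8 were then near 129. Hoxb6, Hoxb7 and Hoxb8 then had 1.90, 1.26 and 1.385. Paralogue 13 did not continue the decline, at 0.854 in CAST and 0.516 in the hybrid, since it rests mainly on Hoxc13. These ratios are descriptions and carry no test.

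As shares of all Hox counts, paralogues 6 to 13 took 31.7%, 28.9% and 16.7% in hybrid libraries 1 to 3, 10.7%, 16.4% and 22.8% in CAST, and 49.4%, 39.2% and 25.2% in 129. The CAST libraries lay below those of 129, and the hybrid overlapped both. Paralogues 4 and 5 took 54.0%, 60.1% and 70.1% in the hybrid, 70.1%, 61.4% and 53.3% in CAST, and 35.7%, 42.2% and 53.9% in 129. Paralogues 1 to 3 took 12.9% ± 1.65 in the hybrid, 21.8% ± 2.36 in CAST and 18.1% ± 3.04 in 129 (SD, n = 3 each). The hybrid had the lowest mean share of paralogues 1 to 3, where Hoxb3 belongs. The mean paralogue number of a Hox read was 4.95 ± 0.254 in the hybrid, 4.59 ± 0.214 in CAST and 5.38 ± 0.467 in 129 (SD, n = 3 each).

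**Figure D3:**
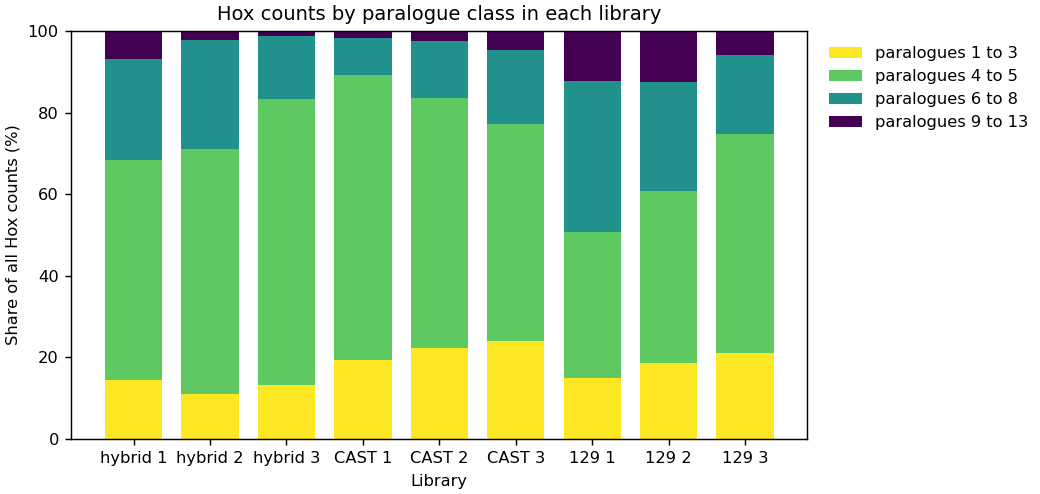
Share of all Hox counts (percent) taken by each paralogue class in each library of the hybrid, CAST and 129. The share of paralogues 6 to 13 is 16.7% to 31.7% in the hybrid, 10.7% to 22.8% in CAST and 25.2% to 49.4% in 129, and paralogues 4 and 5 are the largest class in every library but 129 library 1.

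In percentage points, the mean shares of clusters differed less between lines than those of paralogue classes. Hoxb genes took 46.5% ± 2.82 of Hox counts in the hybrid, 52.1% ± 2.40 in CAST and 51.4% ± 2.12 in 129, and Hoxa genes 32% ± 5.08, 31.6% ± 1.17 and 29.4% ± 2.0 (SD, n = 3 each). Hoxc genes took 19.8% ± 2.66, 14.2% ± 1.06 and 16.5% ± 4.09 and Hoxd genes 1.66% ± 0.359, 2.14% ± 1.08 and 2.67% ± 0.326. By library, Hoxb shares were 43.3% to 48.6% in the hybrid, below the 50.3% to 54.9% of CAST and the 49.2% to 53.5% of 129. Hoxc shares of the hybrid (16.9% to 22.1%) lay above those of CAST (13.1% to 15.3%) and overlapped 129. Hoxd shares of the hybrid (1.26% to 1.96%) lay below those of 129 (2.29% to 2.86%) and overlapped CAST. Hoxa shares overlapped among all lines. The hybrid had the highest mean Hoxc share, and Hoxc4 and Hoxc5 had their highest means there. The Hoxd cluster was low in all lines, and no Hoxd gene averaged above 2.88 CPM per kb, the level of Hoxd8 in 129.

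Of the 39 members, 26 passed the expression filter and were tested, and 13 were not (Hoxa9, Hoxa11, Hoxa13, Hoxb1, Hoxc10, Hoxc11, Hoxc12, Hoxd1, Hoxd9, Hoxd10, Hoxd11, Hoxd12 and Hoxd13). Some passed through a single line, so counts over the 26 describe them and support nothing. In CAST against 129, edgeR called 0 of 26, against 0.917% of all tested genes (0.391% higher, 0.526% lower). At an unadjusted p under 0.05 there were 9 (2 higher, 7 lower), against 14.6% of all genes, while DESeq2 called 4 and limma-voom 1. Libraries did not overlap for 14 members (53.8%; 4 higher, 10 lower), against 28.6% of all genes (15.2% higher, 13.5% lower). The median log2 fold change was −0.152, beside 0.059 for all genes.

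In hybrid against 129, edgeR called 1 of 26 (Hoxb3, lower), against 7.02% of all tested genes (5.41% higher, 1.6% lower). At an unadjusted p under 0.05 there were 8, against 22.2% of all genes. Libraries did not overlap for 6 members (23.1%; 4 higher, 2 lower), against 37.5% of all genes (20.5% higher, 16.9% lower), and the median was −0.223, beside 0.02. In hybrid against CAST, edgeR again called Hoxb3 alone, against 6% of all genes (4.41% higher, 1.6% lower). At an unadjusted p under 0.05 there were 5, against 15.8% of all genes. Libraries did not overlap for 7 members (26.9%; 6 higher, 1 lower), against 19.2% of all genes (10.7% higher, 8.57% lower), and the median was 0.493, beside −0.08. The joint test called 2 of 26, against 8.03% of all genes. The 3 comparisons share libraries pairwise and are not independent of each other.

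**Figure D4:**
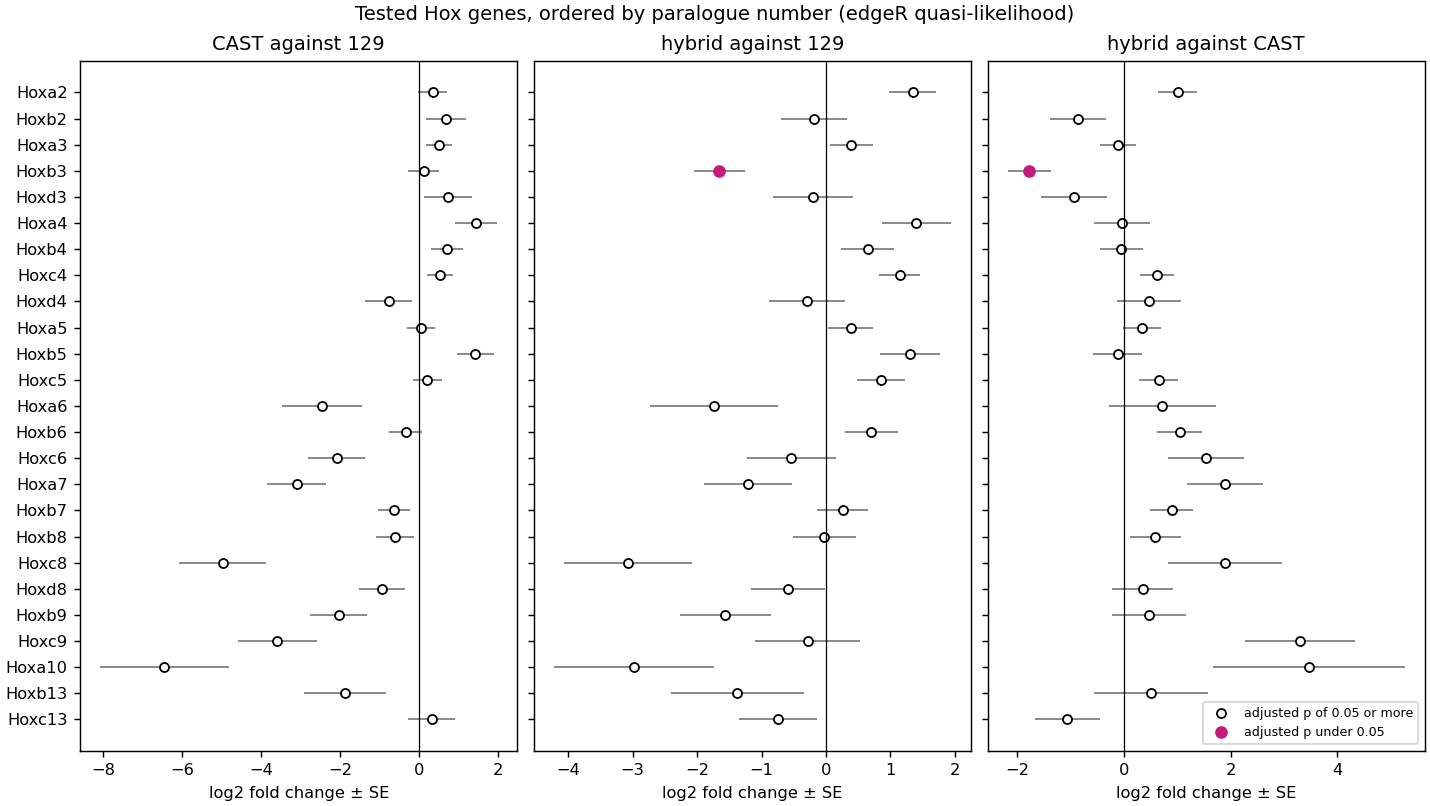
Log2 fold change with SE of tested Hox genes, ordered by paralogue number, in CAST against 129 (left), hybrid against 129 (middle) and hybrid against CAST (right), with filled points where the edgeR adjusted p was under 0.05. Hoxb3 lies at −1.65 in hybrid against 129 and −1.77 in hybrid against CAST, and Hoxc8 at −4.97 in CAST against 129.

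Fibroblast markers were read in all libraries, and their sum ran with the level of some Hox genes within each line. The summed level of 17 fibroblast markers was 48080, 17098 and 3077 CPM in hybrid libraries 1 to 3, 7241, 9832 and 14005 in CAST, and 38082, 36203 and 9185 in 129. All 17 were read in all libraries, led by Fn1 and Col1a1, which encode fibronectin and a collagen, and 4 of the 17 had the order of the sum in all 3 lines on their own. The summed level of paralogues 9 to 13 had the same order of libraries within every line, at 41.2, 20.1 and 10.3 CPM in the hybrid, 12.8, 14.6 and 32.7 in CAST, and 99.9, 73.6 and 30.6 in 129. The summed level of 12 neuronal markers, led by Nefl and Nefm, had the opposite order, at 5509, 10504 and 14435 CPM in the hybrid, 16414, 10310 and 7294 in CAST, and 5582, 8464 and 13512 in 129. Of the 12 neuronal markers, 5 had that opposite order in all 3 lines on their own, and none was at 0 in any library.

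Of the 26 tested Hox genes, Hoxa6, Hoxb9, Hoxc8 and Hoxd8 had the same order of libraries as the fibroblast sum in all 3 lines, against 2.47% of all tested genes. Hoxa4, Hoxb4 and Hoxb5 had the opposite order, against 3.45%, and 19 had neither. Paralogues 4 and 5 summed had the opposite order in the hybrid alone, at 327, 567 and 591 CPM. Their sum did not in CAST (563, 369 and 371 CPM) or in 129 (291, 251 and 288 CPM). The part that the mix of cells has in the Hox differences was not tested.

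**Figure D5:**
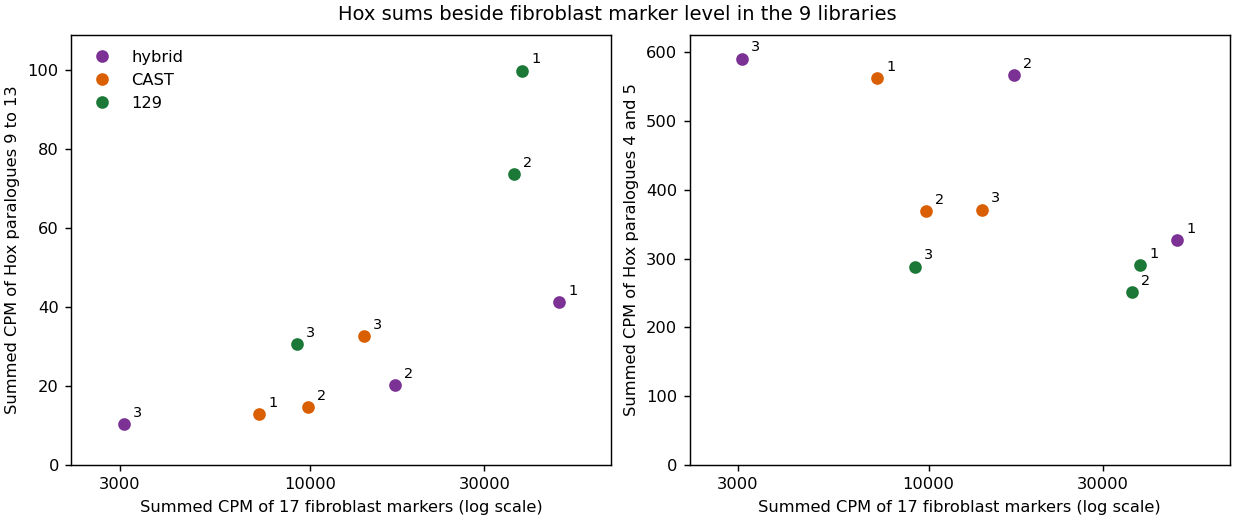
Summed CPM of Hox paralogues 9 to 13 (left) and of paralogues 4 and 5 (right) against the summed CPM of 17 fibroblast markers (log axis) in the 9 libraries, numbered within line. Paralogues 9 to 13 run in the order of the fibroblast sum within each line, and the library highest in paralogues 9 to 13 is 129 library 1 at 99.9 CPM. The sum of paralogues 4 and 5 runs in the opposite order in the hybrid, and not in CAST or 129.

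Genes that work with or upstream of Hox proteins are given as lists of 9 to 23 tested genes, beside 0.917%, 7.02% and 6% of all tested genes called in CAST against 129, hybrid against 129 and hybrid against CAST. In lists of this size a count of 0 is near those shares. At an unadjusted edgeR p under 0.05 the shares of all tested genes were 14.6%, 22.2% and 15.8%, in the same order. DESeq2 also called more of all genes than edgeR in each comparison. Of the 9 tested Hox cofactors of the Pbx, Meis and related families, edgeR called 0 in each comparison (2, 1 and 0 at an unadjusted p under 0.05 in CAST against 129, hybrid against 129 and hybrid against CAST), DESeq2 called Pbx2 in hybrid against 129 and limma-voom none. Meis2 averaged 176 ± 100 CPM in the hybrid, 143 ± 70.3 in CAST and 220 ± 97.1 in 129 (SD, n = 3 each). Of 10 tested axial signalling genes of 22, edgeR called 0 in each comparison (2, 1 and 2 at an unadjusted p under 0.05), DESeq2 1 in each and limma-voom none. Gdf11, a signal that advances Hox expression to caudal members, averaged 66.6 ± 29.9 CPM in the hybrid, 70.7 ± 23.5 in CAST and 83.8 ± 15.3 in 129, and Wnt5a 39 ± 44.7, 49.3 ± 42.4 and 75.9 ± 42.3 (SD, n = 3 each). Cdx1, Cdx2 and Cdx4, the direct activators of trunk Hox genes in the embryo, did not pass the filter and stayed at or below 1.82 CPM.

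Of 12 tested hindbrain regulators, edgeR called 0 in each comparison (2, 0 and 2 at an unadjusted p under 0.05), DESeq2 2, 0 and 1 and limma-voom none. Vgll3, a transcriptional cofactor on the list, averaged 38.8 ± 48.3 CPM in the hybrid, 35.9 ± 26.5 in CAST and 80.4 ± 42.8 in 129 (SD, n = 3 each). Of 18 tested motor column genes, edgeR called 0 in each comparison (3, 3 and 1 at an unadjusted p under 0.05), DESeq2 1, 1 and 0 and limma-voom none. Foxp1, the Hox accessory factor of limb motor neurons, averaged 150 ± 88.7 CPM in the hybrid, 131 ± 90.9 in CAST and 221 ± 29.6 in 129, and Zeb2 114 ± 79.3, 98.9 ± 79.4 and 152 ± 7.32 (SD, n = 3 each).

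The chromatin regulators of Hox clusters included genes that passed. Cbx7, a reader subunit of Polycomb complexes, had 24.7, 14.3 and 23.5 CPM in the hybrid, 25.5, 37.0 and 19.1 in CAST, and 80.3, 104 and 73.0 in 129. It fell in hybrid against 129, at −2.04 ± 0.38 on the log2 scale (SE). The edgeR adjusted p was 0.0105, and 0.059 without 129 library 2. Its CAST libraries were also below those of 129, which edgeR did not call (adjusted p = 0.0815).

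Ring1, a ubiquitin ligase of Polycomb complex PRC1, had 23.4, 42.1 and 37.5 CPM in the hybrid, 34.8, 29.0 and 21.2 in CAST, and 15.3, 12.1 and 12.1 in 129. It rose in hybrid against 129 by 1.38 ± 0.35 (log2, SE; edgeR adjusted p = 0.0442). That call was lost without hybrid libraries 2 and 3, CAST libraries 2 and 3 or 129 libraries 1, 2 and 3, each left out alone (adjusted p = 0.116, 0.129, 0.0742, 0.0517, 0.101, 0.213 and 0.176), and without the filter (0.0796). Of the 23 tested members of that list, edgeR called 0, 3 and 1 in CAST against 129, hybrid against 129 and hybrid against CAST (0%, 13% and 4.35% of the list; 3, 5 and 1 at an unadjusted p under 0.05), DESeq2 2, 4 and 1 and limma-voom 0, 3 and 1. The medians were 0.015, −0.157 and 0.01, beside 0.059, 0.02 and −0.08 for all genes.

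Among 10 tested paraxial and lateral mesoderm markers, edgeR called Lmx1b, a LIM homeobox gene of dorsal limb mesenchyme and of brain neurons, which rose in CAST and in the hybrid against 129. Lmx1b had 12.3, 9.22 and 9.99 CPM in the hybrid, 10.2, 21.6 and 21.6 in CAST, and 1.45, 0.915 and 3.68 in 129. Its log2 fold change was 3.14 ± 0.57 in CAST against 129 and 2.38 ± 0.56 (SE) in hybrid against 129 (edgeR adjusted p = 0.0412 and 0.033), and without hybrid libraries 1, 2 and 3, CAST library 2 or 129 libraries 1 and 2, each left out alone, neither passed (adjusted p = 0.0503, 0.0568, 0.0729, 0.144, 0.168 and 0.178 in CAST against 129, and 0.0606, 0.0618, 0.0754, 0.0526, 0.122 and 0.134 in hybrid against 129). In CAST against 129 the call was also lost without CAST library 3 (adjusted p = 0.0957) and in a fit of these lines alone (0.0826). For the 3 comparisons, ordered as above, edgeR called 10%, 10% and 0% of the 10 markers (0.917%, 7.02% and 6% of all genes). Before adjustment, edgeR p was under 0.05 for 14.6%, 22.2% and 15.8% of all genes and for 3, 2 and 2 markers. DESeq2 called 2, 2 and 1 of them, and limma-voom 1, 1 and 0. The list medians were −0.697, 0.221 and 0.634, against 0.059, 0.02 and −0.08 for all genes. In CAST against 129 the list median and Lmx1b had opposite signs. Of 9 tested genes next to the clusters, of 24 listed, edgeR, DESeq2 and limma-voom called 0 (0, 1 and 0 at an unadjusted p under 0.05). Of these, Cbx5 averaged 201 ± 162 CPM in the hybrid, 258 ± 191 in CAST and 400 ± 58.1 in 129, and Skap2 99.7 ± 7.51, 87 ± 5.7 and 116 ± 24.3 (SD, n = 3 each). Evx1 and Evx2, next to the 5' ends of the Hoxa and Hoxd clusters, did not pass the filter, and Hottip had no count.

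Of the cell type lists, edgeR called 0 of 17 fibroblast markers in each comparison (4, 1 and 4 at an unadjusted p under 0.05), DESeq2 4, 0 and 3 and limma-voom none. The edgeR shares of all tested genes were 0.917%, 7.02% and 6% in CAST against 129, hybrid against 129 and hybrid against CAST. At an unadjusted p under 0.05 they were 14.6%, 22.2% and 15.8%. DESeq2 called more of all genes than edgeR in each comparison. The fibroblast medians were −1.416, −0.359 and 1.139, and the neuronal medians −0.066, −0.205 and −0.44. Those of all genes were 0.059, 0.02 and −0.08. Of 12 neuronal markers each tool called 0 (0 at an unadjusted p under 0.05). Of 5 tested pluripotency genes, edgeR called 0 (1, 0 and 0 at an unadjusted p under 0.05), DESeq2 Zfp42 in CAST against 129 and limma-voom none. Sox2, also a gene of neural progenitors, averaged 52.5 ± 23.4 CPM in the hybrid, 57 ± 41.6 in CAST and 45.9 ± 31.4 in 129, and Klf4 35 ± 12.7, 34.5 ± 16.5 and 44 ± 9.66 (SD, n = 3 each).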

How the data were processed

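Polyadenylated RNA was sequenced in 3 libraries from each of 3 lines, per the labels. The authors deposited raw counts, whole numbers of reads per Ensembl gene, for 27071 genes. Reads were aligned with STAR to mm10, per the submitters' processing notes; the sources used here do not give the STAR version, counting tool, annotation or strand setting. All 9 per-sample columns were used, 0 others were present, and symbols, coordinates and exon lengths came from GENCODE vM21 (GRCm38). No correction was made for strain differences from the mm10 reference.

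Genes were kept by filterByExpr of edgeR 4.0.16 (minimum count 10, total 15, proportion 0.7), scaled by TMM and tested by the quasi-likelihood F test with all 3 lines in 1 fit and no covariates, in R 4.3.3. Two-sided p-values were adjusted over 14839 genes (Benjamini-Hochberg, threshold 0.05). Levels are CPM after TMM scaling. The floor for a group at 0 was 3 counts over the group, and ratios on 1 to 3 counts carry exact 95% counting intervals. Alternatives were RLE scaling, no filter, DESeq2 1.42.0, limma-voom (limma 3.58.1), a replicate block, 2-line fits, an exon length offset, and libraries left out (for the ratios of summed levels and counts, chosen after the data were seen). The steps were tested on data simulated with the same spread for every gene, which does not show how they perform at the spread of each Hox gene.

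Named genes were all 39 members and, from each list, up to 3 genes per direction past the threshold, or the 2 of highest mean CPM. Cdx, Evx, Mnx1, Lhx3, Chat, Isl1, Slc18a3, Slc5a7, Hottip, Pbx2 and Zfp42 lie outside this rule and were chosen after their values were seen. Values of some genes are not reported here. The members and lists were chosen with earlier results of these data known.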

Additional observations from a re-analysis of the deposited data

How the results depend on the processing

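With DESeq2, 4 Hox genes were called in CAST against 129, 4 in hybrid against 129, 2 in hybrid against CAST and 8 in the joint test, and 939, 2100, 1597 and 2506 of all genes. With limma-voom, CAST against 129 had 1 Hox gene and 263 genes in all. Without the filter, 1, 2 and 4 Hox genes were called in CAST against 129, hybrid against 129 and the joint test. With the exon length offset the joint test called 4 Hox genes. The matching counts over all genes are not given here, so these Hox counts have no background of their own. In the main fit the joint test called 8.03% of all genes. Of all genes, CAST against 129 called 286 with the exon length offset and 230 without CAST library 1 and hybrid library 2 together. In a fit of the hybrid and CAST alone 0 Hox genes were called, with fewer samples in the fit. With the replicate number as a block, 0 Hox genes were called in hybrid against 129, hybrid against CAST and the joint test, and 6, 561, 526 and 651 of all genes in the 3 comparisons, in the order above, and the joint test. The block also ended the calls of Cbx7 and Ring1 in hybrid against 129 (adjusted p = 0.0563 and 0.141) and of Lmx1b in CAST against 129 and hybrid against 129 (0.126 and 0.0652). Equal numbers do not mark a shared batch in the labels, and 2 of 9 same-number pairs of libraries had deviations from the line means correlated above 0.1 (range −0.718 to 0.494), so the numbers were not used as pairs.

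With single libraries left out, Hox calls stayed at 0 in CAST against 129 and ranged from 0 to 4 in hybrid against 129, 0 to 1 in hybrid against CAST and 0 to 4 in the joint test, and calls of all genes from 26 to 157, 522 to 1717, 643 to 923 and 788 to 1485. The share of paralogues 6 to 13 ranged from 22.8% to 30.3% in the hybrid, 13.5% to 19.6% in CAST and 32.2% to 44.3% in 129. Of the 26 tested members, 20, 19 and 18 kept their sign in every alternative in the 3 comparisons. No called gene reversed. The causes were not tested. With 3 libraries per line and few reads past paralogue 9, a missing call does not show equal levels.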
